A study of Mus musculus with 2 samples.

Results

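The genes described here are 41 genes of microglia and other brain macrophages, out of 43346 genes in the deposited tables. The rule that takes them uses gene names and no threshold on a measured value, and all 41 were found in both tables by matching gene identifiers to symbols. The tissue was the hindbrain of healthy embryonic day 15.5 mice of strain B6NCrl, and total RNA longer than 200 nt was sequenced from 10 ng with synthetic ERCC spike-in RNAs added. The only group held 2 biological replicates of pooled male and female embryos, in which replicate 2 came from 62 embryos and replicate 1 from 78. No genotype, treatment or second stage was compared, so the questions addressed are the level of each macrophage gene in the tissue and its difference between pools.

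Microglia are the resident macrophages of the brain parenchyma and descend from yolk sac progenitors that enter the embryonic brain. Their survival depends on the receptor CSF1R and its ligands CSF1 and IL-34, and the transcription factor PU.1, encoded by Spi1, is required for their development. Border macrophages occupy the meninges, the choroid plexus and the perivascular space, and are marked by genes such as Mrc1, Lyve1 and Pf4. In the developing brain some microglia also express phagocytic genes such as Spp1, Gpnmb and Lgals3.

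The DNA before the transcription starts of 5 members is shown, 1 from each of several groups, because PU.1, which binds the letters GAGGAA, is encoded by the member Spi1. Whether PU.1 bears on any difference between the pools was not tested. Each window is the 250 bases before a RefSeq start on GRCm38.p6, printed on the strand of the gene. Capitals mark GAGGAA, or TTCCTC where it lies on the other strand. Each window shown holds a match, while 18 of 40 windows of the members did, so those shown do not represent the members. P2ry13 is a homeostatic microglial gene (chr3:59210883-59211132, minus strand) and C1qb a complement gene (chr4:136886201-136886450, minus strand). Ctss is a lysosomal gene (chr3:95526536-95526785, plus strand), Pf4 a border macrophage gene (chr5:90772185-90772434, plus strand) and Spp1 a phagocytic gene (chr5:104434861-104435110, plus strand).
P2ry13: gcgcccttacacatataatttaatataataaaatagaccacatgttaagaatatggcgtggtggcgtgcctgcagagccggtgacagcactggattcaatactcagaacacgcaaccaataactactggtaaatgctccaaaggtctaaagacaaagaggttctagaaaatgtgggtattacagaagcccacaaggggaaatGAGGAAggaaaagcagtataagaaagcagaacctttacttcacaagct
C1qb: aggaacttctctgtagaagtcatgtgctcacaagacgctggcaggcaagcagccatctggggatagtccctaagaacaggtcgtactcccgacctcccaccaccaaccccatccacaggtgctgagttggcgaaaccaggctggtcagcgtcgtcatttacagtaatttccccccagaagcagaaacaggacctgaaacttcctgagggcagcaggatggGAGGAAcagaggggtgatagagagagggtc
Ctss: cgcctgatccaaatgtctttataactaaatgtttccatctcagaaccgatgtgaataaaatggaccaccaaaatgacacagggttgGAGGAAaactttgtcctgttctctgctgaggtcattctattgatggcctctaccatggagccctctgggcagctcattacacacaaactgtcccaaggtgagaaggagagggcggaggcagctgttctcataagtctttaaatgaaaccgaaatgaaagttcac
Pf4: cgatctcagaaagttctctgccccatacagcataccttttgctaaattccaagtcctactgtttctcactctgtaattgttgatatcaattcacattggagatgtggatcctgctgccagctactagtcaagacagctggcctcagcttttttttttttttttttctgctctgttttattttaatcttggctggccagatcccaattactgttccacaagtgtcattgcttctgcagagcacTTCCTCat
Spp1: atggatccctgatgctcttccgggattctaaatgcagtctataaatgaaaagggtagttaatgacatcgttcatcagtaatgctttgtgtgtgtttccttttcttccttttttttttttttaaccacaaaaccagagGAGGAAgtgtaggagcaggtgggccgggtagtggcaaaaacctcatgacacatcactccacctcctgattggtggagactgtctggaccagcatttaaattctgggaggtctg

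Windows were available for 32 of the 41 members, 40 windows in all, since some genes have several starts. GAGGAA stood on either strand in 18 of the 40 windows, or 45.0%, and in 7639 of 32851 windows of all genes, or 23.25%. It was present in 3 of 9 homeostatic windows, 3 of 7 border macrophage windows, 2 of 2 C1q windows and 2 of 6 phagocytic windows. The letters began 8 bases before the start of Pf4, 30 before that of C1qb, 48 before that of P2ry13, 113 before that of Spp1 and 164 before that of Ctss. A match of these letters describes the window and is not a binding site. No other motif was searched.

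Over all genes the estimated counts summed to 43263959 in replicate 2 and to 40020322 in replicate 1. The 41 members together took 0.0464% of these in replicate 2 and 0.0533% in replicate 1. Levels below are deposited TPM, a relative abundance corrected for length, with the mean ± SD over n = 2 libraries. A group's level is the median over its genes of the mean TPM, with the SD of the library medians. Where nothing else is said, a ratio is replicate 2 over replicate 1 of counts scaled by TMM, with a 95% exact (Clopper-Pearson) interval. Reads were not tagged as molecules in these tables, so an interval covers counting error only, and with 1 library a pool the difference between pools has no replicate check and no p-value. All 10 genes of the hindbrain and neuronal list were detected, at a median of 36.7 ± 0.778 TPM.

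Macrophage genes were measured in both pools, with medians near that of coding genes. With detection set as at least 1 TPM in each library, 35 of the 41 members were detected, or 85.4%, beside 63.1% of nuclear protein-coding genes. The median member stood at 6.01 TPM in replicate 2 and 6.33 TPM in replicate 1, beside 5.70 and 5.67 TPM for the median nuclear coding gene. Taken over the mean of each gene, the medians were 5.67 TPM for members and 5.72 TPM for coding genes, and 20 of the 41 stood above that coding value. Pf4, C1qb, Cx3cl1, Lyz2 and Tyrobp led the order, and 13 members reached 10 TPM in both libraries. The 6 members below 1 TPM in at least 1 library were Runx1, Cd14, Itgam, Ptprc, Cd163 and Gpnmb. In the order of mean levels, only 8 of 40 pairs of neighbours had libraries that did not overlap, so most neighbouring ranks did not differ beyond the spread of the libraries. In bulk tissue, fewer cells of a type and less RNA per cell cannot be told apart.

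**Figure D1:**
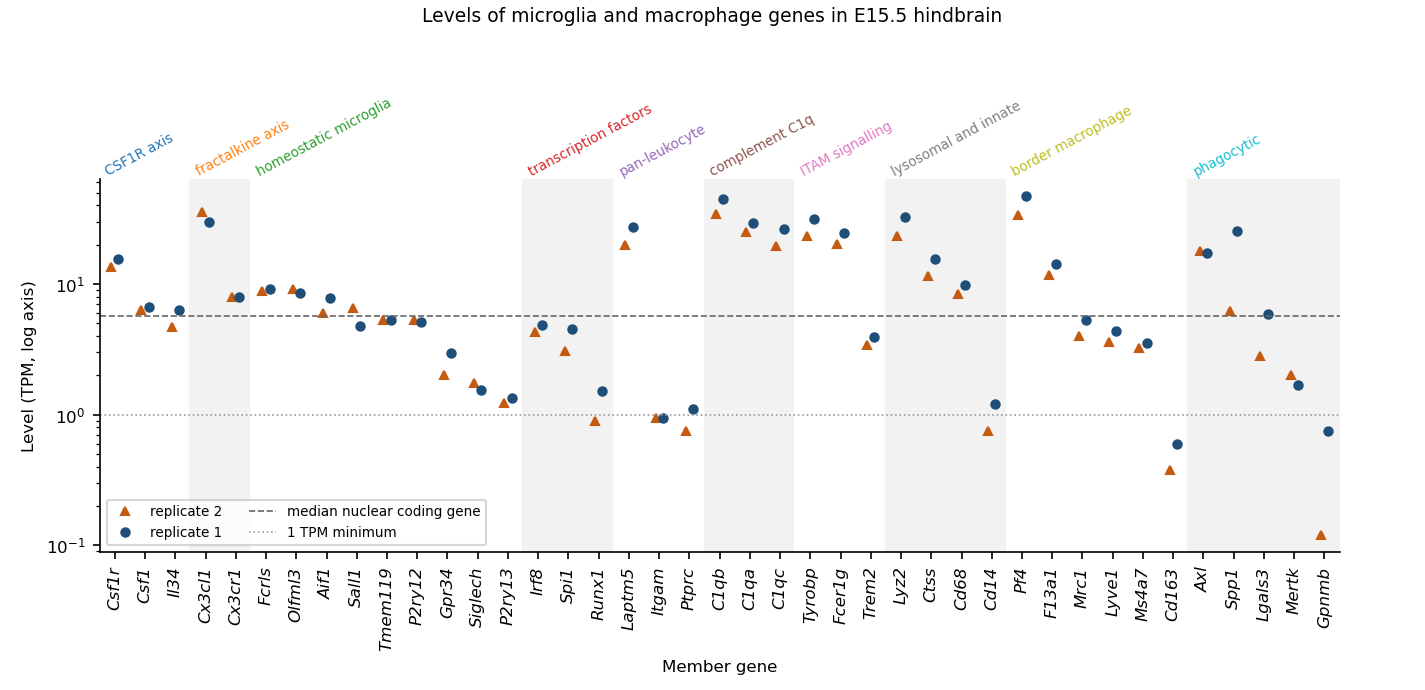
Level in TPM on a log axis of each of the 41 members, ordered by group and by mean level within a group, with triangles for replicate 2 and circles for replicate 1. The dashed line is the median nuclear coding gene and the dotted line the 1 TPM minimum, and 6 genes have at least 1 library below the dotted line.

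The receptor and ligands that maintain the cells were all detected. Csf1r, the receptor tyrosine kinase on which microglia depend, stood at 13.53 TPM in replicate 2 and at 15.55 in replicate 1, or 14.5 ± 1.43 TPM. Csf1 reached 6.34 TPM in replicate 2, with 6.64 in replicate 1. Il34, the ligand made by neurons, gave 4.69 TPM in replicate 2 compared with 6.33 in replicate 1. The ratio of Il34 to Csf1, per length, was 0.740 in replicate 2 and 0.953 in replicate 1, with the higher value for Csf1 in both. The deposited TPM intervals of Csf1 were 6.03 to 8.15 in replicate 2 and 6.25 to 8.01 in replicate 1. Those of Il34, 4.14 to 6.34 and 5.36 to 8.04, overlapped them, so the order of the ligands is not settled. Of the fractalkine pair, the neuronal ligand Cx3cl1 measured 35.85 TPM in replicate 2 against 29.84 in replicate 1. Its microglial receptor Cx3cr1 stood at 7.97 TPM in replicate 2 and at 8.0 in replicate 1, a ratio of counts of 0.998. The ligand exceeded the receptor 4.50-fold in replicate 2 and 3.73-fold in replicate 1.

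The homeostatic microglial genes were detected without exception, 9 of 9, at a median of 5.295 ± 0.134 TPM. Fcrls, an Fc receptor-like gene of mouse microglia, had the highest mean, at 8.81 TPM in replicate 2 against 9.10 in replicate 1. Olfml3, a secreted olfactomedin-like protein, reached 9.23 TPM in replicate 2, with 8.47 in replicate 1. Aif1, which encodes the actin-bundling protein IBA1, gave 6.01 TPM in replicate 2 compared with 7.78 in replicate 1. These were followed by genes used to tell microglia from other macrophages. Tmem119, a membrane protein, measured 5.29 TPM in replicate 2 against 5.30 in replicate 1. P2ry12, the ADP receptor that guides process movement, stood at 5.34 TPM in replicate 2 and at 5.15 in replicate 1. Sall1, a zinc-finger repressor that is also expressed by neural progenitors, reached 6.55 TPM in replicate 2, with 4.79 in replicate 1. Its ratio was 1.34 (interval 1.21 to 1.48), the only interval among the homeostatic genes wholly above 1, while that of Tmem119 was 0.974 (interval 0.826 to 1.15). The lowest members were G protein-coupled receptors and a lectin. Gpr34, a lysophosphatidylserine receptor, gave 2.02 TPM in replicate 2 compared with 2.99 in replicate 1. Siglech, a sialic acid-binding lectin, measured 1.75 TPM in replicate 2 against 1.54 in replicate 1. P2ry13, another ADP receptor, stood at 1.24 TPM in replicate 2 and at 1.34 in replicate 1. The annotated gene Med12l lies opposite P2ry12 and P2ry13, Cask opposite Gpr34 and Hmgxb3 opposite Csf1r, and whether counting used strand is not given in the sources used here. Over all members, 8 have an annotated gene on the opposite strand and 7 on the same strand.

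The genes of the C1q chains, which together form the recognition molecule of the classical complement pathway and which microglia make in the brain, were among the most abundant members. They lie side by side on chromosome 4, with C1qb at chr4:136880129-136886187, C1qc at chr4:136889804-136893065 and C1qa at chr4:136895917-136898803 on mm10. C1qb reached 34.45 TPM in replicate 2, with 45.13 in replicate 1. C1qa gave 24.89 TPM in replicate 2 compared with 29.16 in replicate 1. C1qc measured 19.55 TPM in replicate 2 against 26.51 in replicate 1. All chains were lower in replicate 2, and their order was the same in both libraries. Per length, C1qb was 1.47 ± 0.116 times C1qa and C1qc was 0.847 ± 0.0874 times C1qa.

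The signalling adaptors were high and the receptor Trem2 was lower. Tyrobp, which encodes the ITAM adaptor DAP12, stood at 23.37 TPM in replicate 2 and at 31.25 in replicate 1. Fcer1g, the Fc receptor gamma chain, reached 20.12 TPM in replicate 2, with 24.54 in replicate 1. Trem2, the lipid-sensing receptor that signals through DAP12, gave 3.41 TPM in replicate 2 compared with 3.95 in replicate 1. The pan-leukocyte genes were split in the same way. Laptm5, a lysosomal membrane protein of blood cells, measured 19.79 TPM in replicate 2 against 27.33 in replicate 1. Itgam, the CD11b integrin chain, had 0.95 TPM in both libraries. Ptprc, the phosphatase CD45, stood at 0.75 TPM in replicate 2 and at 1.11 in replicate 1. Ptprc lay below 1 TPM in replicate 2 only, and Itgam in both libraries.

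Lysosomal and innate genes had a median of 11.3 ± 1.91 TPM. Lyz2, lysozyme, reached 23.48 TPM in replicate 2, with 32.45 in replicate 1, and its close copy Lyz1 was at 0.03 TPM in replicate 2 against 0.07 in replicate 1. The estimated counts of Lyz2 were not whole, so some reads were divided between features. Ctss, the protease cathepsin S, gave 11.54 TPM in replicate 2 compared with 15.48 in replicate 1. Cd68, a lysosomal membrane glycoprotein, measured 8.43 TPM in replicate 2 against 9.89 in replicate 1. The lipopolysaccharide co-receptor Cd14 had only 30 counts in replicate 2 and 46 in replicate 1, or 0.75 TPM and 1.21 TPM. Among the transcription factors, Irf8 stood at 4.33 TPM in replicate 2 and at 4.84 in replicate 1. Spi1, which encodes PU.1, reached 3.09 TPM in replicate 2, with 4.50 in replicate 1. Runx1, also a factor of blood stem cells and of some neurons, gave 0.90 TPM in replicate 2 compared with 1.51 in replicate 1. The factors had a group median of 3.80 ± 0.997 TPM, and all were lower in replicate 2.

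The border macrophage genes covered a wide range of mean levels, 0.49 to 40.4 TPM, and 5 of 6 were detected. Pf4, the chemokine CXCL4 (chr5:90772435-90773383, plus strand), had the highest mean of all 41 members, at 33.96 TPM in replicate 2 against 46.89 in replicate 1. F13a1, the coagulation factor XIII A subunit, measured 11.71 TPM in replicate 2 against 14.19 in replicate 1. Mrc1, the mannose receptor CD206, stood at 3.97 TPM in replicate 2 and at 5.28 in replicate 1. Pf4 was 8.72 ± 0.231 times Mrc1 per length, a ratio that moved little between libraries. Lyve1, the hyaluronan receptor, reached 3.62 TPM in replicate 2, with 4.34 in replicate 1. Ms4a7, a tetraspan membrane protein, gave 3.26 TPM in replicate 2 compared with 3.52 in replicate 1. Cd163, the scavenger receptor for haemoglobin, was the lowest with 46 counts in replicate 2 and 67 in replicate 1, or 0.38 TPM and 0.60 TPM. Every border gene was thus lower in replicate 2 in TPM.

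Some border genes have other sources. Pf4 is also a platelet gene and Lyve1 a gene of lymphatic endothelium, so markers of both were read beside them. Of 8 megakaryocyte and platelet genes 3 were detected, led by Gp1bb, Itga2b and Ppbp, and their summed level was 24.45 TPM in replicate 2 against 20.73 in replicate 1, a ratio of 1.14 (interval 1.04 to 1.27). Ppbp, a chemokine of platelets, measured 1.53 TPM in replicate 2 against 1.14 in replicate 1, and Gp9 had 0.87 TPM and 0.49 TPM. That sum was carried by Gp1bb, with a ratio of 1.19 (interval 1.05 to 1.36), while Itga2b had a ratio of 0.945 (interval 0.770 to 1.16) and Pf4 itself 0.708 (interval 0.625 to 0.802). The part of platelets in the level of Pf4 was not tested. Of 5 lymphatic genes 4 were detected, led by Pdpn, Reln and Prox1, which other hindbrain cells also express. The summed counts of the list had a ratio of 1.07 (interval 1.04 to 1.11). Reln held 5187.9 of these 8498.28 counts in replicate 2 and 4236.93 of 7321.12 in replicate 1, with a ratio of 1.13. The remaining genes of the list were Flt4, with a ratio of 0.933 (interval 0.784 to 1.11), and Ccl21a, with 0.660 (interval 0.353 to 1.22).

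The phagocytic genes divided into members at like levels in both pools and members at unlike levels. Axl, a TAM receptor tyrosine kinase that binds apoptotic cells through GAS6, reached 18.05 TPM in replicate 2, with 17.21 in replicate 1. Mertk, the related receptor, gave 2.00 TPM in replicate 2 compared with 1.70 in replicate 1. Axl was 9.57 ± 0.777 times Mertk per length, and neither receptor differed between pools beyond counting error. The 455-base retained intron Axl-207 held 26.5% of the TPM of Axl in replicate 2 and 18.5% in replicate 1, and is part of that ratio. Other cells of the tissue also make Axl and Mertk, and their part in these levels was not tested. The other members were the most unequal of all 41. Spp1, the secreted phosphoprotein osteopontin (chr5:104435118-104441050, plus strand), measured 6.19 TPM in replicate 2 against 25.45 in replicate 1. Lgals3, galectin-3 (chr14:47367751-47386160, plus strand), stood at 2.83 TPM in replicate 2 and at 5.89 in replicate 1. Gpnmb, a lysosomal glycoprotein (chr6:49036546-49070929, plus strand), reached 0.12 TPM in replicate 2, with 0.75 in replicate 1. All of these were higher in replicate 1 and their levels in the libraries lay far apart.

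Set side by side, homeostatic microglial genes had the higher median, 5.295 ± 0.134 TPM, against 4.30 ± 0.718 TPM for border macrophage genes. The ratio of these medians was 1.41 in replicate 2 and 1.07 in replicate 1, above 1 in both. The summed level gave the other order, 46.24 TPM for homeostatic against 56.90 TPM for border genes in replicate 2 and 46.46 TPM against 74.82 TPM in replicate 1, with Pf4 alone at 33.96 and 46.89 TPM of the border sums. Phagocytic genes had a median of 4.36 ± 2.16 TPM, and their ratio to the border median was 0.746 in replicate 2 and 1.22 in replicate 1, so their order depended on the library. Counting detected genes alone, the ratio of phagocytic to border medians was 2.18, because Gpnmb and Cd163 left their groups.

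Between the pools most members were lower in replicate 2. On the log2 scale 35 of the 41 were below 0, beside 49.8% of the 17048 genes whose mean count was at least 20. The median member had a log2 ratio of -0.31, and the median gene overall 0.00035. Past 1.5-fold, 7 members were lower in replicate 2, beside 4.26% of all genes, and 0 were higher, beside 2.22%. At mean counts within the range of the members, 3.72% of genes were lower by that much. The intervals lay wholly below 1 for 24 members, wholly above 1 for 2, Cx3cl1 and Sall1, and spanned 1 for 15. The same count was not made over all genes, so these numbers do not set the members apart from other genes. Counting error is not the whole spread between the libraries. Over genes with a summed count of at least 20, the chi-square was 11.6 per degree of freedom, where counting error alone gives about 1. The intervals can thus be too narrow for a difference between pools. The log2 ratios of the 17048 genes had an SD of 0.40.

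**Figure D2:**
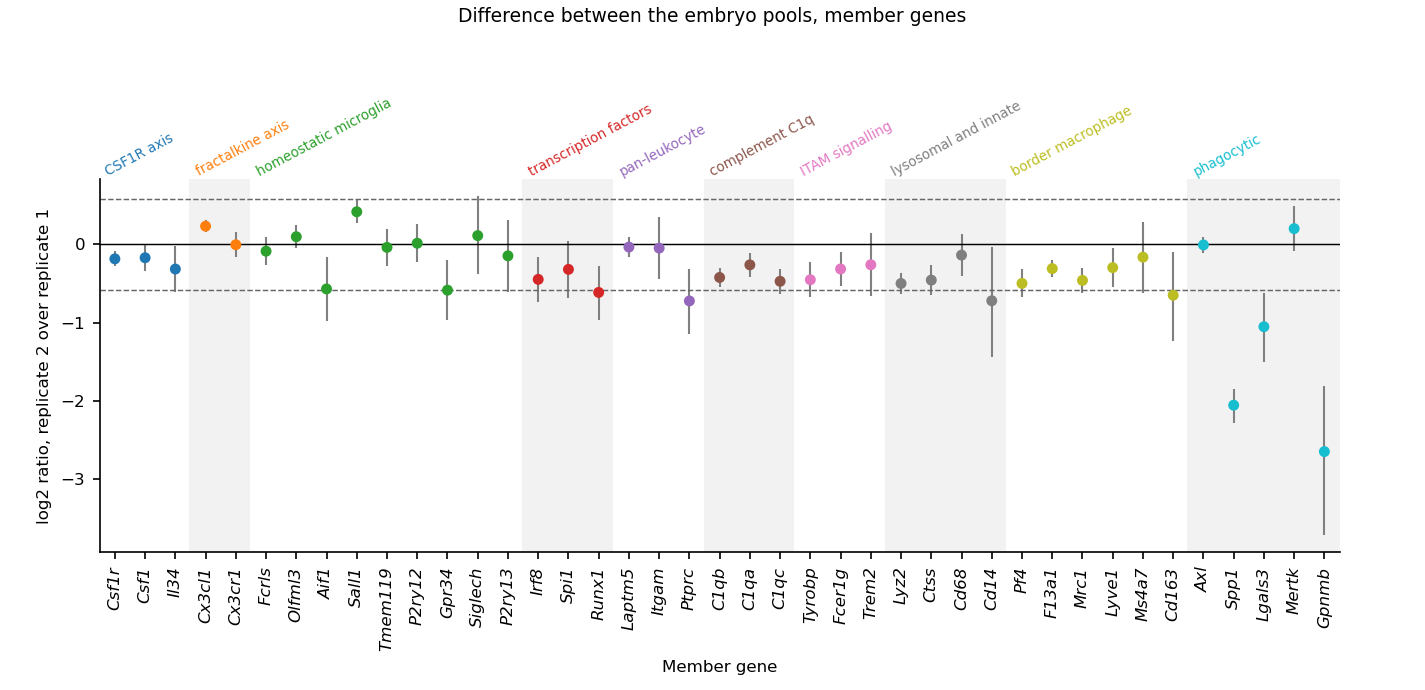
Log2 ratio of scaled counts, replicate 2 over replicate 1, of the 41 members by group, with 95% exact intervals for counting error as vertical lines and 1.5-fold as dashed lines. Of the members 35 lie below 0, and Spp1, Lgals3 and Gpnmb lie below -1.

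The members past 1.5-fold were phagocytic genes or genes near 1 TPM or lower. Spp1 had 223 counts in replicate 2 and 859 in replicate 1, a ratio of 0.241 (interval 0.207 to 0.279). Gpnmb had 12 counts in replicate 2 and 72 in replicate 1, a ratio of 0.160 (interval 0.0762 to 0.286). Lgals3 had 67 counts in replicate 2 and 129 in replicate 1, a ratio of 0.483 (interval 0.353 to 0.651). These were the members past 2-fold, which 1.33% of all genes were in that direction. The other members called were Runx1 at 0.654, Cd163 at 0.638, Cd14 at 0.607 and Ptprc at 0.606, all of them under 1 TPM in replicate 2. Gpr34 at 0.667 and Aif1 at 0.674 lay just inside the threshold. Leaving out Spp1, Gpnmb and Lgals3, 32 of 38 members were still below 0.

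The summed counts of the groups ranged from below to above 1. All 6 border macrophage genes were below 0 on the log2 scale, at a median of -0.38, and their summed counts had a ratio of 0.770 (interval 0.730 to 0.811). All 3 C1q genes were below 0 too, with a ratio of sums of 0.763 (interval 0.721 to 0.808). The lysosomal and innate genes gave 0.738 (interval 0.687 to 0.792) and the signalling adaptors with Trem2 gave 0.776 (interval 0.702 to 0.859). The transcription factors gave 0.725 (interval 0.637 to 0.824), the CSF1R axis 0.876 (interval 0.829 to 0.927), the pan-leukocyte genes 0.937 (interval 0.865 to 1.02) and the fractalkine pair 1.14 (interval 1.09 to 1.19). The homeostatic genes had 5 of 9 below 0, a median log2 ratio of -0.04 and a ratio of sums of 1.05 (interval 0.999 to 1.11). That sum leans on genes that other cells also express, Sall1 and Olfml3, whose own ratios were 1.34 and 1.07. Without them it was 0.917 (interval 0.853 to 0.987). Of the genes left, Gpr34 at 0.667 and Aif1 at 0.674 had intervals wholly below 1. The intervals of Fcrls, Tmem119, P2ry12, P2ry13 and Siglech spanned 1. The phagocytic sum had a ratio of 0.717 (interval 0.677 to 0.759), and without Axl and Mertk it was 0.264 (interval 0.231 to 0.300). The difference between groups was not tested, as genes of a group share their libraries.

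**Figure D3:**
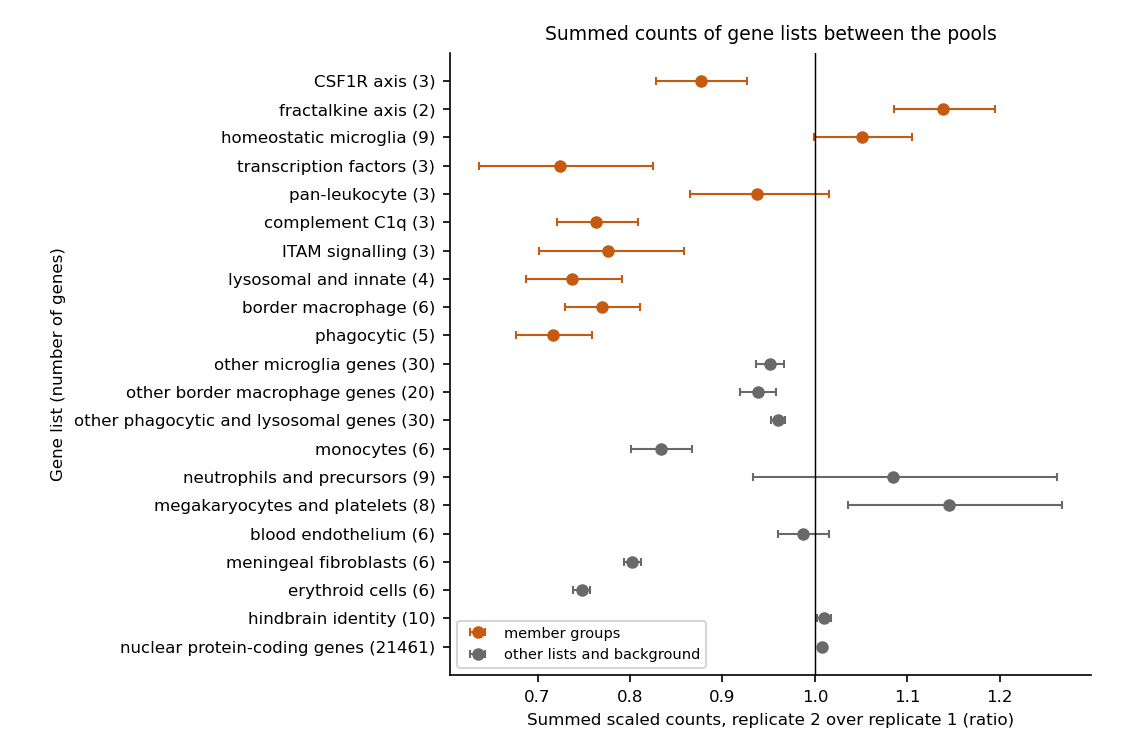
Ratio of summed scaled counts, replicate 2 over replicate 1, for the groups of members in orange and for other lists and all nuclear coding genes in grey, with 95% exact intervals for counting error and the number of genes in brackets. Border macrophage, C1q and lysosomal sums lie near 0.75, while blood endothelium and hindbrain identity lie near 1.

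Genes of the same cells outside the 41 gave a partly similar picture. Of 20 other border macrophage genes 13 were detected. Of 17 with enough counts 7 were lower past 1.5-fold, beside 4.26% of all genes, and 16 were below 0, beside 49.8%. Their median log2 ratio was -0.32. The summed counts of all 20 had a ratio of 0.938 (interval 0.919 to 0.958), nearer 1 than the 0.770 of the border members. Ednrb, with a ratio of 1.03, held 9782 of these 17621.3 counts in replicate 2 and 8798 of 17392.5 in replicate 1. Among those 7, the intervals of Cbr2 and Clec10a spanned 1, and Cbr2, Clec10a, Clec4n and Ccl24 were under 1 TPM in replicate 2. Ms4a6c, a relative of Ms4a7, gave 1.24 TPM in replicate 2 compared with 3.61 in replicate 1, the lowest ratio among those 17 at 0.339 (interval 0.228 to 0.491), and was chosen after its values were seen. The highest genes of the list, Ednrb, Ifitm3 and Slc40a1, are also expressed by other cells. Of 30 other microglial genes 19 were detected, led by Cst3 and Rgs10. Past 1.5-fold 5 were lower, beside 4.26% of all genes, and the median log2 ratio was -0.07. Their summed counts had a ratio of 0.952 (interval 0.937 to 0.967). Of 30 other phagocytic and lysosomal genes 22 were detected, led by Fabp5, Apoe and Cd63. Of 26 with enough counts 2 were lower past 1.5-fold and 1 higher, beside 4.26% and 2.22% of all genes. The median log2 ratio was -0.06, and the summed counts of the list had a ratio of 0.960 (interval 0.953 to 0.968). Clec7a, a phagocytic microglial receptor in that list, was under 1 TPM, at 0.56 TPM in replicate 2 against 0.82 in replicate 1. It too was chosen after its values were seen.

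Other cells of the dissected tissue also moved between the pools. Meningeal fibroblast genes, led by Col3a1, Col1a2 and Col1a1, were all 6 detected and all 6 below 0, with summed levels of 452.60 TPM in replicate 2 against 550.68 in replicate 1 and a ratio of 0.802 (interval 0.793 to 0.811). Erythroid genes, led by Hbb-bs and Alas2, summed to 2844.25 TPM in replicate 2 against 3781.57 in replicate 1, a ratio of 0.748 (interval 0.738 to 0.757), and 4 of 6 were detected, with reads of near-identical globin genes uncertain. Blood endothelial genes, led by Cldn5, Kdr and Pecam1, were all 6 detected with a ratio of 0.987 (interval 0.960 to 1.02). The part that meninges or blood left on the tissue had in the lower border macrophage genes was not tested.

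Markers of other blood cells that share genes with macrophages were mostly below 1 TPM. Of 6 monocyte genes only Fn1, which fibroblasts also express, was detected. Plac8 had 5 counts in replicate 2 and 52 in replicate 1, Ccr2 had 14.96 and 50, and Ly6c2 had 7.07 and 18.75, while Chil3 had 1 count in each. The whole list summed to 30.87 TPM in replicate 2 against 39.22 in replicate 1, of which Fn1 was 29.89 and 34.23 TPM. Plac8, Ccr2 and Ly6c2 were thus lower in replicate 2, as were Spp1, Gpnmb and Lgals3, and their part in that difference was not tested. Neutrophil genes summed to 24.00 TPM in replicate 2 against 21.79 in replicate 1, a ratio of 1.08 (interval 0.934 to 1.26), with 3 of 9 detected, Prtn3, S100a8 and S100a9, and Ngp highest of those that were not. Among mast cell genes only Kit, also a neuronal gene, was detected of 6, Cma1 and Cpa3 lay under 1 TPM and Mcpt4 had 0 counts in both libraries. None of 9 lymphocyte genes reached the minimum in both libraries. The highest were Cd79b at 1.10 TPM in replicate 2 against 0.99 in replicate 1, Cd79a and Rag1. Spp1 is also a bone gene. Of 6 osteoclast and bone genes 2 were detected, Mmp9 and Ctsk. The list summed to 37.46 TPM in replicate 2 against 30.24 in replicate 1, of which Mmp9 was 30.32 and 21.57 TPM. Ctsk had a ratio of 0.883 (interval 0.738 to 1.06), and Acp5 measured 0.35 TPM in replicate 2 against 0.77 in replicate 1. Ibsp, a bone sialoprotein chosen after its values were seen, had 11 counts in replicate 2 and 30 in replicate 1.

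At the level of transcripts the members mostly kept their main form. Of 27 detected members with several annotated transcripts, 24 had the same leading transcript in both libraries, and in 10 it held over 90% of the gene's TPM in each. Csf1r-202 held 88.8% of Csf1r in replicate 2 and 70.5% in replicate 1. Cx3cr1-202 held 75.9% of Cx3cr1 in replicate 2 and 88.9% in replicate 1, while the ratio of the gene was 0.998 (interval 0.895 to 1.11). Csf1 was shared by 2 coding transcripts, with Csf1-201 at 44.9% in replicate 2 and 61.7% in replicate 1, and Csf1-202 at 42.7% and 26.2%. Spp1-201 led in both libraries, with 92.2% in replicate 2 and 94.2% in replicate 1, so the same form of Spp1 was the one that differed. The leader differed in Aif1, Laptm5 and Siglech. In Aif1 the leader was Aif1-205, a retained intron, with 54.1% in replicate 2 and the coding Aif1-203 with 62.5% in replicate 1. By posterior mean TPM, Aif1-205 led in both libraries, with 49.4% in replicate 2 and 35.3% in replicate 1. By the same measure the leader of Csf1 differed, with Csf1-202 at 41.7% in replicate 2 and Csf1-201 at 53.5% in replicate 1, so neither gene has a settled leader.

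**Figure D4:**
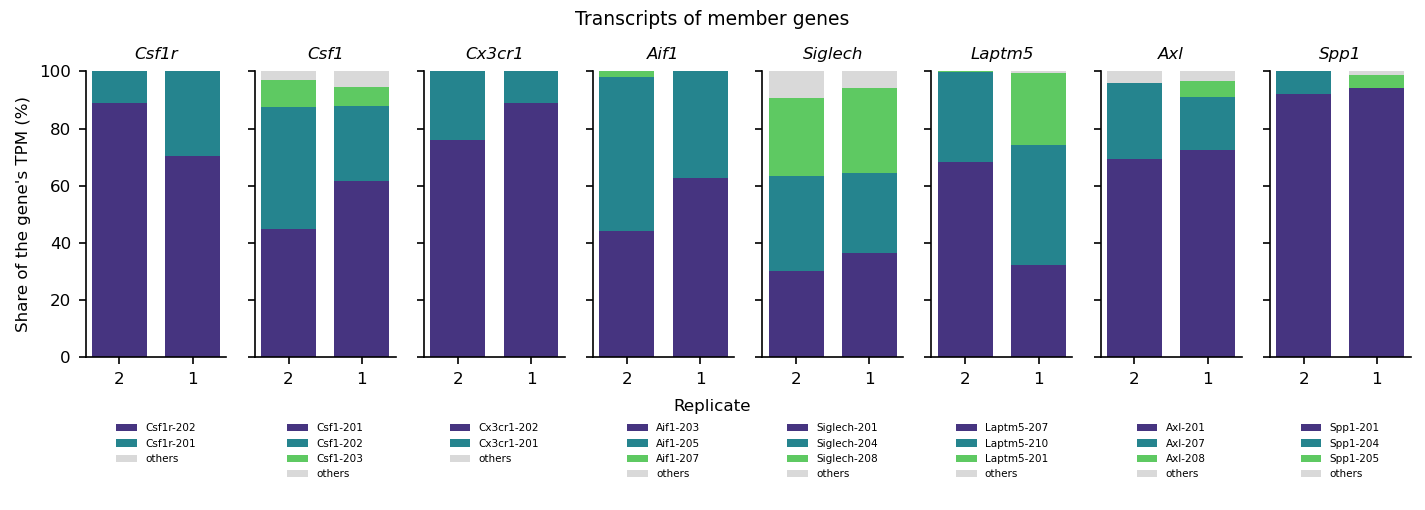
Share of the gene's TPM in percent held by the 3 highest transcripts of 8 members, with replicate 2 left of replicate 1 and all other transcripts in grey. The leading transcript differs between libraries in Aif1, Siglech and Laptm5 and is the same in Csf1r, Csf1, Cx3cr1, Axl and Spp1.

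Laptm5 shows how this bears on a level. The gene had 1030 counts in replicate 2 and 976 in replicate 1, a ratio of 0.977 (interval 0.894 to 1.07), yet 19.79 TPM in replicate 2 against 27.33 in replicate 1. The 2600-base transcript Laptm5-207 took 68.1% of its TPM in replicate 2 and 32.3% in replicate 1. The 1322-base transcript Laptm5-201 took 0.253% in replicate 2 and 25.3% in replicate 1. Reads assigned to a longer transcript give a lower TPM, and the counts of Laptm5 did not differ beyond counting error.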

How the data were processed

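Total RNA came from a mirVana extraction, per the labels, and was sequenced with spike-ins. The estimated counts deposited by the authors are raw reads assigned to a gene or transcript, and need not be whole. The deposited TPM values are scaled over all features, spike-ins included. The deposited FPKM, and the signal of posterior mean TPM with its interval bounds, served as alternatives. Values were made by the authors on mm10 with GENCODE M4, without pooling libraries, per the notes deposited with the files. No aligner, quantifier or strand setting is named: each is not given in the sources used here.

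GENCODE M21 (GRCm38) supplied symbols and positions, and 42462 of 43346 identifiers matched. Spike-ins, at 3.09% of counts in replicate 2 and 2.86% in replicate 1, stayed out of library sizes. Scaling of counts used edgeR 4.0.16 (TMM, R 4.3.3), and log2 ratios used a prior count of 0.5 and a mean count of 20 or more. The ratio was tried on simulated counts that held counting error only, so that check does not cover the further spread between these libraries. Detection was 1 TPM in both libraries. No p-value was computed. The members and lists were chosen with earlier results of these data known. All members are named, with the 3 highest genes of each other list and, where under 50% were detected, the highest gene not detected. Some genes that this choice takes are left out of the text. Of the erythroid list 1 gene, Ahsp, was not matched. Alternatives were DESeq2 1.42.0 size factors, library and spike-in totals, other prior counts, minimums and pseudocounts, FPKM, posterior TPM, coding TPM and each library alone.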

Additional observations from a re-analysis of the deposited data

How the results depend on the processing

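No paired analysis was possible because there was 1 group of 2 libraries. The order of phagocytic and border medians turned with the library, at 0.746 in replicate 2 alone and 1.22 in replicate 1 alone. Detection counts ranged from 32 to 39 over the alternatives. The homeostatic median was 3.285 in FPKM and 6.74 with TPM over coding genes, and 5.15 to 5.34 TPM in single libraries. The border median was 2.67 in FPKM and 5.48 with coding TPM. The median of all members was 3.51 in FPKM, 7.21 with coding TPM, 5.93 with posterior TPM, and 6.01 to 6.33 TPM in single libraries. FPKM and coding TPM only rescale the levels. The ratio of phagocytic to border medians was 2.18 over detected genes alone.

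The median log2 ratio of members was -0.42 with spike-in totals, which shift every gene by -0.11, and -0.22 and -0.275 with TPM ratios at pseudocounts of 1 and 0.1. The number of members past 1.5-fold was 11 with spike-in totals, 3 at a mean count of 100 or more, where Gpnmb, Lgals3, Cd14 and Cd163 fell away for their low counts, and 3 with TPM ratios at a pseudocount of 1, namely Gpnmb, Lgals3 and Spp1. Library totals or a prior count of 0.1 added Gpr34, giving 8. At a mean count of 100 or more the phagocytic median log2 ratio was -0.01, over Spp1, Axl and Mertk. Sign changes were limited to values near 0, in Cx3cr1 and Axl with DESeq2 size factors, P2ry12 and Olfml3 with spike-in totals, and Axl with TPM ratios. At a gene minimum of 5 TPM 15 of 17 members kept their leading transcript. By posterior mean TPM the number was 24 as before, with Aif1 added and Csf1 lost. Of 362 single-gene ratios under alternatives, chosen after the data were seen, 10 moved beyond their interval. With 1 library a pool, differences between pools cannot be told apart from those between library preparations, and counts under 100 limit Cd14, Cd163, Gpnmb and the monocyte markers.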

Other observations

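The complement and chemoattractant genes around the members were also read from lists of gene names, chosen with earlier results of these data known. Of 13 genes of complement and its receptors 9 were detected, led by Clu, an extracellular chaperone, at 66.9 ± 0.580 TPM and the C1 inhibitor Serping1 at 34.8 ± 4.20 TPM. Past 1.5-fold, 2 were lower in replicate 2 and 1 was higher, beside 4.26% and 2.22% of all genes. Those lower were C3ar1 at 1.36 TPM in replicate 2 against 2.08 in replicate 1 and C2 with 1.95 TPM and 2.97 TPM. C1s1 was higher, at 0.81 TPM in replicate 2 against 0.47 in replicate 1. C3, whose fragment C3ar1 binds, had 0.94 TPM in replicate 2 against 1.53 in replicate 1, but its 130 counts in replicate 2 and 119 in replicate 1 gave a ratio interval of 0.783 to 1.31. C2, C3, C3ar1 and C1s1 were chosen after their values were seen.

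Of 10 genes in a list made up mostly of receptors and partners for purines, chemokines and IL-34, 8 were detected. The highest was Ptprs at 165.8 ± 14.8 TPM, which is not taken here as a receptor or partner for these. Ptprz1, a receptor of neural progenitors that also binds IL-34, reached 38.08 TPM in replicate 2, with 36.08 in replicate 1, above Csf1r in both libraries. Sdc1, another surface protein that binds IL-34, gave 14.53 TPM in replicate 2 compared with 17.44 in replicate 1.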
